A study of Mus musculus with 2 samples.

Results

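Malat1 and Neat1 are long noncoding RNAs made from neighbouring genes that stay in the nucleus, and their levels were followed cell by cell in cultured mouse renal progenitors after panobinostat or vehicle. They were taken by symbol as 2 of the 19394 genes counted in the series. The pair was chosen by its share of UMIs in these same cells, with earlier results known, so levels and differences are given as a description, with no test. Malat1 is held in nuclear speckles, the bodies in which splicing factors gather. Neat1 is the scaffold around which paraspeckles form, and its long isoform recruits proteins such as Nono, Sfpq and Pspc1. Because both RNAs stay in the nucleus while most messenger RNA and all mitochondrial transcripts lie outside it, their share of a cell's transcripts is also used as a sign of how much of the captured RNA is nuclear.

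Glomeruli were cultured from C57Bl/6 mice aged 9 weeks, and the outgrown cells were sorted for GFP. The mice carry Pax2.rtTA and TetO.Cre with the R26.mT/mG reporter, so that an inducible Cre under the Pax2 promoter switches descendants of Pax2-expressing cells to GFP. All cells shared this genotype, 5 days of outgrowth, the sort and 16 h of starvation. The panobinostat group then received 0.2 µM of this inhibitor of histone deacetylases for 48 h, and the vehicle group received DMSO for the same time. Per the labels the kidneys came from 2 mice, and each treatment has 1 library. The effect of the drug and other differences between the libraries cannot be told apart, and intervals below cover counting error only.

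The panobinostat library held 2281 cells and 104188927 UMIs (counted molecules), and its median cell had 42394 UMIs and 6589 genes. With vehicle there were 2854 cells and 90754967 UMIs, and the median cell had 27924 UMIs and 5492 genes. The median mitochondrial share of a cell's UMIs was 6.96% with panobinostat and 5.10% with vehicle, and that of 97 S and G2/M genes was 22.1 and 77.0 UMIs per 10000. Of 12 parietal epithelial and progenitor markers, which include Pax2 and Pax8, all 12 reached 10 UMIs per 1000000 (CPM) in at least 1 library, and their summed level was 7179 CPM with panobinostat and 11571 CPM with vehicle. The keratins Krt8 (1710 CPM with panobinostat and 4587 CPM with vehicle) and Krt18 (2295 and 3301 CPM) made up most of both sums. Pax2 stood at 24.9 and 40.4 CPM, Pax8 at 119.9 and 120.2 CPM, and Ncam1 ran the other way (269 and 60.4 CPM). Summed markers of other cells the outgrowth could hold were 226 CPM with panobinostat against 128 CPM with vehicle for podocytes, 86.3 against 1464 CPM for mesangial and smooth muscle cells, 68.3 against 5.31 CPM for immune cells, 26.0 against 14.9 CPM for endothelium and 16.0 against 9.05 CPM for tubule. Of these lists 3 of 8 podocyte, 3 of 7 mesangial and smooth muscle, 1 of 5 immune, 1 of 8 endothelial and 1 of 7 tubule genes with a row reached 10 CPM in a library. The podocyte gene Wt1, the tubule gene Umod and the haemoglobin genes Hba-a1 and Hba-a2 had 0 UMIs with vehicle, and the haemoglobin genes summed to 1.16 CPM with panobinostat. A single gene made up most of the immune sum (Cd68, 65.5 CPM with panobinostat against 4.11 CPM with vehicle), while Ptprc, the pan-leukocyte marker, stood at 1.98 and 0.606 CPM. With panobinostat Flt1 made up most of the endothelial sum (15.5 against 2.74 CPM), while Emcn (0.0864 against 6.68 CPM), Cdh5 and Pecam1 were lower. Lrp2 made up most of the tubule sum there (11.7 against 0.65 CPM), while Aqp1 was lower (1.95 against 8.24 CPM). Tagln and Acta2 made up most of the mesangial and smooth muscle sum, while Pdgfra, Pdgfrb and Itga8, all below 10 CPM, were higher with panobinostat. The sums thus need not follow the share of each cell type. The libraries had 0 cell barcodes in common.

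Both genes lie on the minus strand of chromosome 19 and are annotated in GENCODE M21 on GRCm38 as long intergenic noncoding RNAs. Malat1 (ENSMUSG00000092341.3) spans chr19:5795690-5802672 and Neat1 (ENSMUSG00000092274.3) spans chr19:5824708-5845478, with 22035 bases between them. Each has 4 annotated transcripts. The full-length Malat1-201 is a single exon of 6983 bases, Neat1-201 is the single-exon long isoform of 20771 bases, and Neat1-202 is a short isoform of 3004 bases in 2 exons. Their 3′ ends are shown because the libraries count molecules at that end, from a primer that binds runs of A, and because the ends differ. In mouse and human cells the Malat1 end and the long Neat1 end are cut by RNase P, which leaves an A-rich tract encoded in the gene that folds into a triple helix with upstream U-rich stretches. The short Neat1 end is a conventional polyadenylated one. The 100 bases that end with the A-rich tract, or with the end of the short isoform, are given 5′ to 3′ with the A-rich element or the poly(A) signal in capitals.
Malat1-201: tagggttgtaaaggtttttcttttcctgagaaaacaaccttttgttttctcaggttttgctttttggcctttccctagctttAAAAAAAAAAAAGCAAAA
Neat1-201: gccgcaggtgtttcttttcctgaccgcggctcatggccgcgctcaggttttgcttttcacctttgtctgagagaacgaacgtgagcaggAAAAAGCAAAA
Neat1-202: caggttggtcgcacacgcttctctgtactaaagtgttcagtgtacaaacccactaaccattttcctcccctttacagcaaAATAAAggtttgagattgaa
These stretches lie at chr19:5795982-5796081, chr19:5824708-5824807 and chr19:5842307-5842406. The end element, shown in capitals in Neat1-201, occurred 1 time in Malat1-201, 1 time in Neat1-201 and 0 times in Neat1-202. The longest uninterrupted A run was 12 bases in Malat1-201, 7 bases in Neat1-201 and 5 bases in Neat1-202, and in Malat1-201 it is the run shown in capitals. The short isoform ended 14 bases after its poly(A) signal. The deposited counts give 1 value per gene, so the isoforms of Neat1 are not told apart in any value below.

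Malat1 was the most abundant transcript of the panobinostat library. It held 4358584 UMIs with panobinostat, or 41833 CPM (95% interval 41794 to 41873), against 665704 UMIs with vehicle, or 7335 CPM (7318 to 7353). Its rank by CPM was 1 with panobinostat and 9 with vehicle, where Actb was first (5606 CPM with panobinostat, 15180 CPM with vehicle). The transcript next below it with panobinostat was mt-Co1, a mitochondrial subunit of cytochrome oxidase, at 18564 CPM against 9463 CPM with vehicle. Malat1 thus took 4.18% of all UMIs with panobinostat and 0.734% with vehicle, a gain of 3.45 percentage points that was the largest of any gene past the floor.

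Neat1 was far less abundant and differed less between the libraries. It held 116679 UMIs with panobinostat, or 1120 CPM (1113 to 1126), and 42330 UMIs with vehicle, or 466 CPM (462.0 to 470.9). Its rank by CPM was 125 with panobinostat and 302 with vehicle.

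The log2 ratio of CPM, panobinostat over vehicle, was 2.51 (2.51 to 2.52) for Malat1 and 1.26 (1.25 to 1.28) for Neat1. Calls of higher or lower needed a 2-fold ratio, an interval without equality and a floor of 10 CPM, reached in either library. Malat1 (5.70-fold) and Neat1 (2.40-fold) were both called higher, as were 874 of 8872 genes past the floor (9.85%), while 973 were called lower (11%). By size of ratio they stood at places 223 and 643 of the 8872 genes, and by gain in CPM at places 1 and 23. The median log2 ratio of all genes past the floor was -0.07, and it was -0.18 with TMM factors and -0.19 with DESeq2 factors, under which 38.6% and 38.1% of the calls were higher, against 47.3% by library total. With these factors the log2 ratio was 2.40 and 2.39 for Malat1, and 1.15 and 1.14 for Neat1. Since Malat1 alone takes a visible part of the panobinostat total, both members were also left out of the totals, which gave 2.56 for Malat1 and 1.32 for Neat1.

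In single cells the level is given as UMIs per 10000 UMIs of the cell. The median cell held 404 Malat1 UMIs per 10000 with panobinostat (quartiles 281 and 555) and 50.9 with vehicle (30.7 and 88.6). In molecules this was a median of 1701 Malat1 UMIs per cell with panobinostat and 153 with vehicle. The 5th and 95th percentiles were 150.3 and 849 with panobinostat, against 10.1 and 214 with vehicle, and the highest cell reached 2372 with panobinostat and 910 with vehicle. The bulk of the cells was thus shifted: 98.7% of panobinostat cells were above the vehicle median, 87.2% were above the vehicle 95th percentile, and 28 vehicle cells (0.981%) were above the panobinostat median.

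The Neat1 distributions overlapped far more. Median Neat1 was 9.66 UMIs per 10000 with panobinostat (quartiles 6.29 and 14.4) and 3.02 with vehicle (1.35 and 6.03), or 42 and 9 UMIs per cell. Of the panobinostat cells 94.5% were above the vehicle median, but 22.6% were above the vehicle 95th percentile of 15.2. In the other direction 335 vehicle cells (11.7%) were above the panobinostat median. The highest cell held 194 with panobinostat and 162 with vehicle. The ratio of the medians was 7.94 for Malat1 and 3.20 for Neat1, both above the folds of the summed counts.

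**Figure D1:**
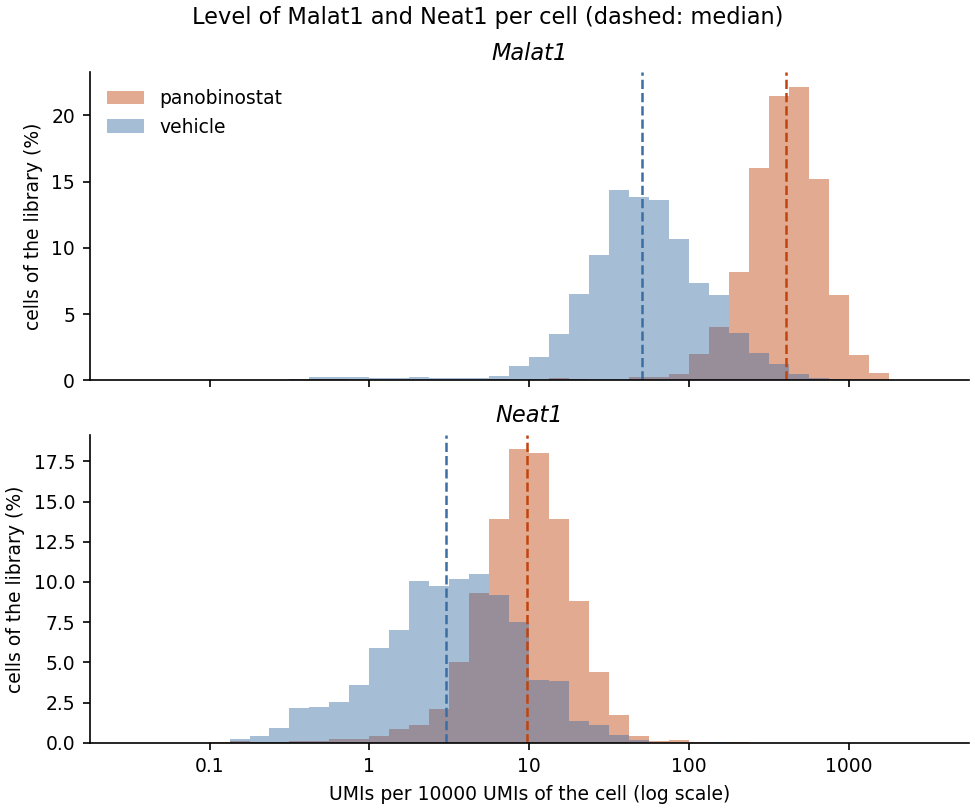
Share of the cells of each library (%) by level of Malat1 (top) and Neat1 (bottom), in UMIs per 10000 UMIs of the cell on a log scale; dashed lines are the medians and cells at 0 are not drawn. The 2 libraries are largely apart for Malat1 (medians 404 and 50.9) and overlap for Neat1 (9.66 and 3.02).

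Relative to its mean, each RNA varied less among panobinostat cells than among vehicle cells. The coefficient of variation (SD over mean) of Malat1 was 0.531 with panobinostat and 1.06 with vehicle, where counting noise alone would give 0.0240 and 0.0718. For Neat1 it was 0.798 with panobinostat and 1.41 with vehicle, and counting alone would give 0.148 and 0.283. The 95th percentile of Malat1 was 5.65 times the 5th with panobinostat and 21.1 times with vehicle. The decile of cells richest in Malat1 held 21.2% of the summed per-cell level with panobinostat and 34.4% with vehicle, and for Neat1 the richest decile held 26.3% and 39.0%. The median quotient of Malat1 UMIs to Neat1 UMIs within a cell was 39.3 with panobinostat (quartiles 27.5 and 59.1, 2271 cells with Neat1) and 17.2 with vehicle (9.36 and 34.0, 2660 cells).

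Almost every cell of both libraries held Malat1. After thinning each cell to 18663 UMIs, which left out 60 panobinostat and 453 vehicle cells, Malat1 was found in 2220 of 2221 panobinostat cells and in 2391 of 2401 vehicle cells. Neat1 was found in 99.4% of thinned panobinostat cells (exact binomial 95% interval 99.001% to 99.69%) and in 93.4% of thinned vehicle cells (92.3% to 94.3%). Without thinning the Neat1 shares were 99.6% and 93.2%, and those of Malat1 99.8% and 98.6%. The median thinned cell held 753 Malat1 and 18 Neat1 UMIs with panobinostat, against 97 Malat1 and 6 Neat1 UMIs with vehicle. Cells were not assigned to types, so no background share from a type that should lack these RNAs is given.

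A few cells held no Malat1 at all. There were 4 such cells with panobinostat and 41 (1.44%) with vehicle. At their library's median level, cells of their depth would have held 412 to 648 Malat1 UMIs with panobinostat and 43.7 to 157 with vehicle. Of these cells, 3 of 4 with panobinostat and 38 of 41 with vehicle also held no Neat1. The 41 vehicle cells had medians of 12931 UMIs, 2652 genes, a mitochondrial share of 2.25% and a ribosomal protein share of 18.9%, against 28168 UMIs, 5521 genes, 5.12% and 14.7% in the other vehicle cells. The 29 panobinostat cells below the vehicle median of Malat1 were deep (median 56509 UMIs) but also had a low mitochondrial share (4.42%) and a high ribosomal protein share (19.1%, against 11.7% over the library), and 10 of the 29 held no Neat1. The 28 vehicle cells above the panobinostat median lay on the other side, with a mitochondrial share of 7.26%, a cell-cycle share of 21.6 per 10000, a ribosomal protein share of 11.2% and 15.9 Neat1 UMIs per 10000.

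Malat1 was lower in deeper cells with panobinostat, while with vehicle it showed no such order. With the cells of each library ranked by UMI total and split into 5 equal groups (quintiles), median Malat1 in panobinostat cells was 476, 426, 395, 381 and 338 per 10000 with increasing depth, a 1.41-fold span. In vehicle cells it was 47.4, 50.4, 59.2, 51.6 and 48.6. Spearman's rho over cells, which share a library and are no replicates, was -0.25 with panobinostat and 0.04 with vehicle. Neat1 varied little with depth: its medians ran between 9.07 and 10.6 with panobinostat and between 2.74 and 3.28 with vehicle, with rho of -0.08 and 0.03.

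The relation to the mitochondrial share had opposite signs in the libraries. Among panobinostat cells median Malat1 was 471 in the lowest quintile of mitochondrial share and 354 in the highest, with rho of -0.16. Among vehicle cells it was 38.8 in the lowest quintile and 85.8 in the highest, 2.21 times as high, with rho of 0.30. Neat1 followed the same signs: 10.5 in the lowest and 8.98 in the highest quintile with panobinostat (rho -0.05), and 2.11 and 3.83 with vehicle (rho 0.18). With mitochondrial, cell-cycle and member UMIs left out of the total, the panobinostat relation was near 0: rho was -0.031 for Malat1 and 0.02 for Neat1, while among vehicle cells it was 0.32 and 0.20.

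Cells with a high cell-cycle share held less of both RNAs, most clearly with vehicle. Among vehicle cells median Malat1 in quintiles of rising cell-cycle share was 98.5, 67.4, 39.1, 37.3 and 46.1 per 10000, and median Neat1 was 4.61, 4.33, 2.95, 2.27 and 1.90. Malat1 was thus lowest in quintile 4 and Neat1 in the highest. The rank correlation rho was -0.31 for Malat1 and -0.30 for Neat1. Among panobinostat cells the medians ran between 320 and 460 for Malat1 and between 8.77 and 10.6 for Neat1, with rho of -0.21 and -0.08. The range of cell-cycle share was narrow there: its quartiles were 19.3 and 25.4 per 10000, against 30.0 and 120.5 with vehicle. Among the cell-cycle UMIs of the panobinostat library 22.3% came from Tubb4b, a beta tubulin, and 21.2% from Jpt1, neither of which is limited to dividing cells, against 13.6% and 7.14% with vehicle.

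**Figure D2:**
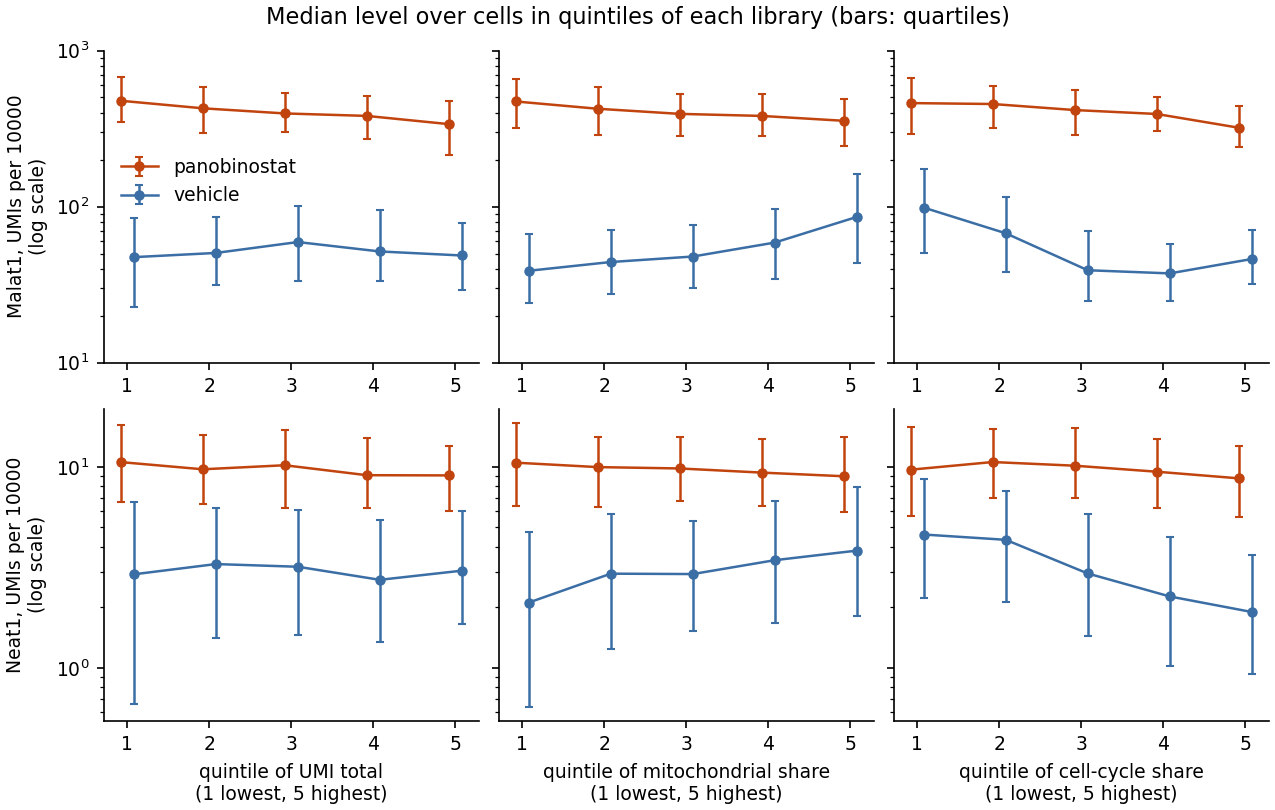
Median level of Malat1 (top) and Neat1 (bottom), in UMIs per 10000 on a log scale, in quintiles of each library ranked by UMI total, mitochondrial share and cell-cycle share; bars are the quartiles over cells. Panobinostat medians lie above vehicle medians in every quintile, and the vehicle medians are higher at a high mitochondrial share (38.8 in quintile 1 and 85.8 in quintile 5 for Malat1) and at a low cell-cycle share.

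Split by phase genes, the relation differed in form between the libraries. Taking the highest tercile of S-phase share and of G2/M share within each library, vehicle cells low in both held a median of 68.7 Malat1 and 4.32 Neat1 UMIs per 10000. Vehicle cells high in S only held 36.9 and 2.06, those high in both 43.8 and 2.27, and those high in G2/M only 42.7 and 1.84. Among panobinostat cells those high in S only had the highest medians, 488 for Malat1 and 11.4 for Neat1, and those high in G2/M only the lowest, 342 and 8.76. The rank correlation rho of Malat1 with the S-phase share was 0.17 with panobinostat and -0.32 with vehicle, and with the G2/M share it was -0.27 and -0.31. The S-phase share itself was low with panobinostat (median 5.01 per 10000, against 19.2 with vehicle). In vehicle cells the mitochondrial share was lower where the cell-cycle share was higher (rho -0.35), and holding either constant left Malat1 with partial rho of 0.21 for the mitochondrial and -0.22 for the cell-cycle share, and Neat1 with 0.09 and -0.26.

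Because depth, mitochondrial share and cell-cycle share all differed between the libraries, cells were also compared in windows shared by both. In 5 windows of UMI total the ratio of medians, panobinostat over vehicle, was 7.15 to 10.4 for Malat1 and 3.05 to 3.53 for Neat1. In 5 windows of mitochondrial share it ran between 3.53 and 11.9 for Malat1 and between 2.01 and 4.37 for Neat1, smallest in the window of highest share. In that window the Malat1 median was 374 with panobinostat and 106 with vehicle. In 4 windows of cell-cycle share the ratio was 3.93 to 6.42 for Malat1 and 1.87 to 2.41 for Neat1, and the window of highest share held 0 panobinostat cells and 1027 vehicle cells. The 6.42 came from a window of 33.3 to 106 per 10000 with 54 panobinostat cells, none above 54.2, and 973 vehicle cells. Cells of the libraries were thus not closely matched there, and the other windows gave 3.93 to 4.78 for Malat1. Both RNAs were therefore higher with panobinostat in every window that held cells of both libraries.

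The difference was smaller among cells of low cell-cycle share. In cells with at most 30.9 cell-cycle UMIs per 10000, which were 2167 panobinostat cells (95.0%) and 749 vehicle cells (26.2%), median Malat1 was 409 with panobinostat and 95.1 with vehicle, and median Neat1 was 9.80 and 4.71. Summed over these cells the log2 ratio was 1.77 for Malat1 (3.42-fold) and 0.74 for Neat1 (1.67-fold), so Neat1 no longer met the 2-fold rule. In cells of shared UMI totals (33123 to 39158 UMIs, 412 panobinostat and 331 vehicle cells) the log2 ratio was 2.61 for Malat1 and 1.42 for Neat1. Median Malat1 there was 422 with panobinostat and 50.2 with vehicle. The part that the mitochondrial or the ribosomal protein share (median 11.7% with panobinostat and 14.7% with vehicle) has in the difference was not tested.

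Malat1 and Neat1 went together from cell to cell. Within the panobinostat library median Neat1 was 5.20 per 10000 in the decile of cells with least Malat1 and 14.1 in the decile with most. Within the vehicle library it was 0.564 and 8.01. Spearman's rho between them was 0.45 with panobinostat and 0.47 with vehicle. With every cell thinned to the same total it was 0.43 and 0.42.

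**Figure D3:**
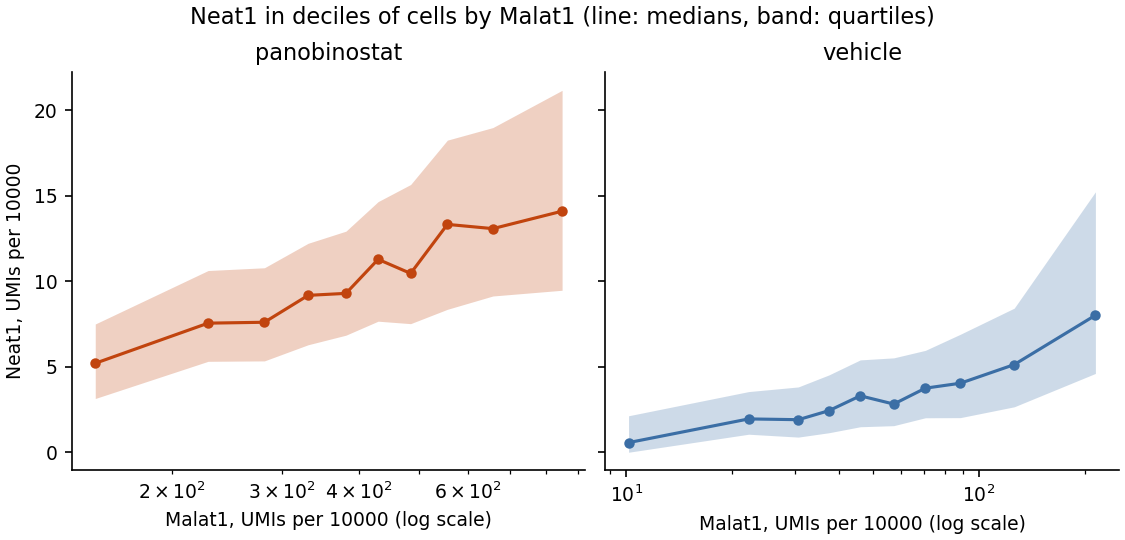
Neat1 (UMIs per 10000) in deciles of cells ranked by Malat1, plotted at the median Malat1 of each decile (log scale), with panobinostat cells in the left and vehicle cells in the right panel; points are medians and bands the quartiles. Median Neat1 runs between 5.20 and 14.1 with panobinostat and between 0.564 and 8.01 with vehicle, higher at high Malat1 in both.

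Among genes of at least 50 CPM, each was the gene most like the other in both libraries. Likeness was measured as Pearson's r of log2(count per 10000 + 1) over thinned cells, and r between Malat1 and Neat1 was 0.50 with panobinostat (place 1 of 3076 genes, 2221 cells) and 0.45 with vehicle (place 1 of 3201 genes, 2401 cells). In comparison, 95% of genes had an r with Malat1 below 0.12 with panobinostat and below 0.15 with vehicle.

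The genes next most like Malat1 with panobinostat were Chka, a choline kinase (r = 0.33), Id1 (0.30), the mitochondrial complex I gene mt-Nd5 (0.29) and Id2 (0.28). Id1, Id2 and Id3 encode inhibitors of basic helix-loop-helix transcription factors. Among the least like it were Ppia, which encodes cyclophilin A, and the ribosomal protein gene Rpl39, each at -0.38. With vehicle the next were App, the amyloid precursor (0.39), the mitochondrial mt-Co3 and mt-Nd5 (both 0.35) and the lysosomal protease gene Ctsd (0.34). The least like there were H2afz, a histone variant (-0.41), Ube2s, a ubiquitin-conjugating enzyme of mitosis (-0.40), and Ranbp1, which acts in nuclear transport (-0.37).

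For Neat1 with panobinostat the next were the lysosomal protease gene Ctsl (0.22), the non-muscle myosin gene Myh9 (0.19), Id1 and Id3 (both 0.17). The ribosomal protein genes Rps10 (-0.30), Rps2 (-0.29) and Rpl6 (-0.26) were at the other end. With vehicle the next were Ctsd (0.32), Cd81, a tetraspanin (0.29), Sqstm1, an autophagy receptor (0.26), and Lamp2, a lysosomal membrane protein (0.24). The mitotic genes Ube2c, Cdk1 and Top2a were lowest, at -0.31, -0.31 and -0.30. The ribosomal protein share as a whole had rho of -0.36 with Malat1 among panobinostat cells and -0.30 among vehicle cells, and of -0.26 and -0.20 with Neat1.

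Cells rich in Malat1 differed in other marker sums as well. With cells of a library ranked by Malat1 and split into quintiles, the summed mesangial and smooth muscle markers, which were mostly Tagln and Acta2, were 229 CPM in the lowest and 19.5 CPM in the highest quintile with panobinostat, and 2070 and 1094 CPM with vehicle. Podocyte markers were 245 and 182 CPM with panobinostat and 102 and 171 CPM with vehicle. The parietal epithelial and progenitor markers stayed between 7034 and 7330 CPM with panobinostat and between 11166 and 12068 CPM with vehicle. Their part in the relations above was not tested.

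The genes around the pair were measured in the same way. Of 25 other annotated genes within 120 kb, 16 had a row in the matrix used and 10 passed the floor. Calls among the 10 were 0 higher and 1 lower, near the 9.85% higher and 11% lower over all genes, and their median log2 ratio was -0.18, against -0.07 over all genes. Beyond Malat1, Ltbp3, a binding protein of latent TGF-beta, stood at 35.5 CPM with panobinostat and 25.8 CPM with vehicle (log2 ratio 0.46). On the Neat1 side the nearest coding genes were Frmd8, at 35.2 CPM with panobinostat and 37.7 CPM with vehicle (-0.10), and the mitochondrial carrier gene Slc25a45, at 3.87 and 4.97 CPM and so below the floor. The one gene called lower was Pola2, a subunit of DNA polymerase alpha, at 5.85 CPM with panobinostat and 13.9 CPM with vehicle (-1.25). It reached 10 CPM only with vehicle. In cells of low cell-cycle share its log2 ratio was 0.45, at 5.93 and 4.33 CPM, below the floor in both libraries. Cdc42ep2, an effector of Cdc42, was the highest of the 10 at 0.99. Small RNAs and antisense transcripts annotated inside the members were not analysed here, and the antisense Frmd8os next to Neat1 held 26 UMIs with panobinostat and 15 with vehicle.

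**Figure D4:**
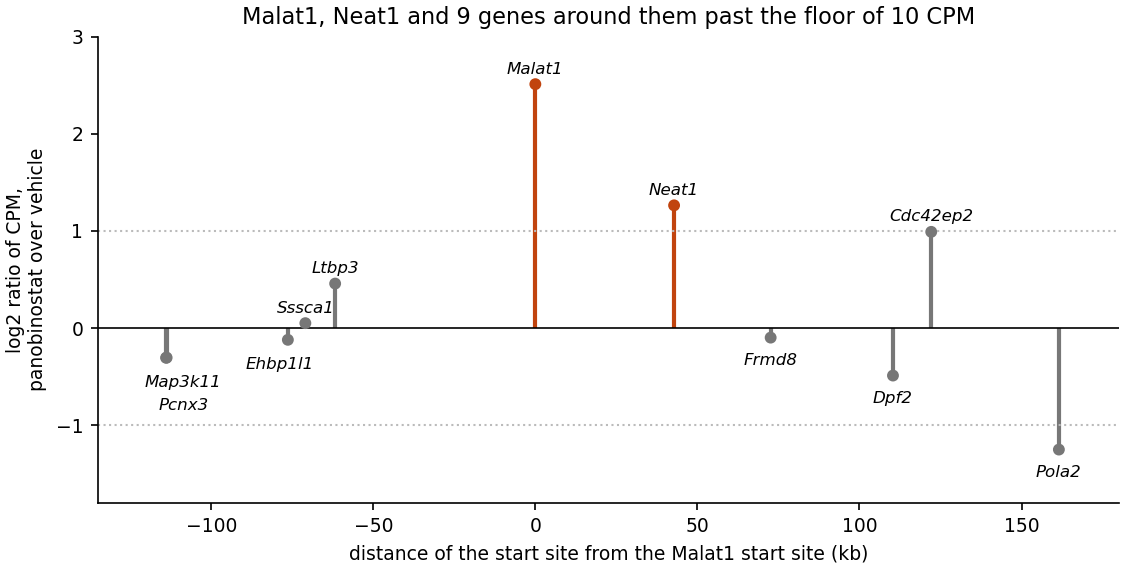
Log2 ratio of CPM, panobinostat over vehicle, of Malat1, Neat1 (orange) and 9 of the 10 other genes around them past the floor (grey), against the distance of each start site from that of Malat1 in kb; dotted lines mark 2-fold. Malat1 (2.51) and Neat1 (1.26) stand above 2-fold, Pola2 (-1.25) stands below it, and Map3k11 and Pcnx3 fall on the same point.

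Other long noncoding RNAs were called in both directions, and most were not called. Of 43 listed, 26 had a row and 15 passed the floor, of which 2 were called higher and 3 lower, with a median log2 ratio of -0.08. Over all genes 9.85% were called higher and 11% lower. The imprinted Meg3 stood at 143 CPM with panobinostat and 0.320 CPM with vehicle (8.80), and Snhg11 at 22.3 and 0.253 CPM (6.46). Genes such as these, under 10 CPM in one library, entered through the other, so that a large ratio was built into their entry. The small nucleolar RNA host Snhg12 was lower, at 14.8 CPM with panobinostat and 34.8 CPM with vehicle (-1.23), as were Gm26917 (-1.32) and 2810474O19Rik (-1.04). A pair of nuclear RNAs that act on chromatin were close to equal: Xist, which coats the inactive X chromosome, at 361 CPM with panobinostat and 310.0 CPM with vehicle (0.22), and Kcnq1ot1, an imprinted antisense RNA, at 115 and 121 CPM (-0.07). From cell to cell Xist had an r with Malat1 of 0.20 with panobinostat and 0.28 with vehicle, and Meg3 of 0.01 and -0.02.

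Transcripts of paraspeckle proteins had a negative median ratio, while Neat1 itself was higher. Of 49 listed, 48 had a row and 40 passed the floor, of which 0 were called higher and 8 lower, with a median log2 ratio of -0.65. The shares over all genes were 9.85% higher and 11% lower. Of the core proteins that bind Neat1, Sfpq stood at 132 CPM with panobinostat and 345 CPM with vehicle (-1.39), Nono at 125 and 229 CPM (-0.87) and Pspc1 at 26.9 and 34.0 CPM (-0.34). The other large ratios were those of Rbmx (6.45 CPM with panobinostat and 31.3 CPM with vehicle, -2.28), Unc13d (3.57 and 16.3 CPM, -2.19), Hnrnph1 (27.4 and 89.2 CPM, -1.70) and Rbm14 (12.2 and 30.4 CPM, -1.32). Unc13d is known for granule release, and the others here bind RNA. Rbmx and Unc13d reached 10 CPM only with vehicle, so a large ratio was built into their entry. In cells of low cell-cycle share 3 of 40 were lower, with a median of -0.31, and Sfpq stood at -0.60, Nono at -0.52 and Pspc1 at 0.34, the opposite sign. Over all genes such cells gave 778 higher and 591 lower calls among 8675 genes past the floor.

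Splicing factors of the speckles, where Malat1 is held, had a negative median as well. All 40 passed the floor, and 0 were called higher and 6 lower, against 9.85% and 11% over all genes, with a median of -0.57. The 6 were the splicing regulators Srsf7 (43.7 CPM with panobinostat and 194 CPM with vehicle, -2.15), Srsf6 (-1.69), Srsf2 (-1.61), Srsf3 (-1.54) and Tra2b (-1.14), and U2af2, which recognises the 3′ splice site (-1.38). In cells of low cell-cycle share 2 were lower, against 591 of 8675 over all genes, and the median was -0.37. Of 22 genes past the floor among those for nuclear 3′ ends and decay, 0 were called higher and 8 lower, with a median of -0.53. The shares over all genes were again 9.85% higher and 11% lower. The 8 included the RNase P proteins Pop1 (-1.76), Pop4 (-1.18) and Rpp38 (-1.03) and the nuclear exosome nuclease Exosc10 (-1.44). They also included the m6A methyltransferase Mettl3 (-1.39) and the microRNA processing factor Dgcr8 (-1.07). The other RNase P genes named on the list, Pop5 (-0.63), Rpp30 (-0.19) and Rpp14 (-0.04), were not called. Nor were the exosome genes Exosc3 (-0.27), Exosc5 (0.08) and Exosc9 (0.12). Of the 8, Pop1 (8.04 CPM with panobinostat), Mettl3 (6.41 CPM) and Rpp38 (7.64 CPM) reached 10 CPM only with vehicle. In cells of low cell-cycle share 3 of 22 were lower, against 591 of 8675 over all genes, and the median was -0.08.

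Genes known to regulate Neat1 or to respond to the same signals were mixed. Of 20 past the floor, 4 were called higher and 3 lower, against 9.85% and 11% over all genes, with a median of 0.20. Trp53, an activator of Neat1 transcription, stood at 92.1 CPM with panobinostat and 244 CPM with vehicle (-1.40), while its target and inhibitor Mdm2 stood at 645 and 262 CPM (1.30). Another target of Trp53, Cdkn1a, stood at 627 and 513 CPM (0.29) and was not called. The hypoxia target Bnip3 stood at 39.4 CPM with panobinostat and 6.64 CPM with vehicle (2.57). It reached 10 CPM only with panobinostat, so a large ratio was built into its entry. The hypoxia targets Slc2a1 (-0.39) and Vegfa (0.36) were not called. Of the hypoxia factors, Hif1a stood at 87.7 CPM with panobinostat and 81.5 CPM with vehicle (0.11). Epas1 stood at 9.16 and 1.04 CPM, below the floor in both libraries. Brca1, a DNA repair gene, stood at 2.34 and 16.2 CPM (-2.79) and reached 10 CPM only with vehicle. In cells of low cell-cycle share the log2 ratio of Brca1 was 0.51, at 2.34 CPM with panobinostat and 1.65 CPM with vehicle, below the floor in both. In these cells 19 regulators passed the floor and gave 4 higher calls, 1 lower call and a median of 0.01. Over all genes such cells gave 778 higher and 591 lower calls among 8675 genes, with a median of -0.002.

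Of 16 heat shock and early stress genes, 8 were called higher and 0 lower, against 9.85% and 11% over all genes, with a median of 1.00. The early response genes Fos (316 CPM with panobinostat and 32.2 CPM with vehicle, 3.30), Atf3 (101 and 16.4 CPM, 2.63), Egr1 (520.1 and 86.0 CPM, 2.60) and Fosb (50.8 and 17.9 CPM) were higher, as was the heat shock gene Hspa1a (53.3 and 11.1 CPM, 2.26). The other heat shock genes of the list were not called: Hsph1 stood at -0.81, Hspa8 at -0.36, Hsp90aa1 at 0.15, Dnajb1 at 0.32 and Hspa1b at 0.37. The rest of the higher calls were thus early response genes. The early response genes Dusp1 (0.85), Junb (0.42) and Ier3 (0.03) were not called. Egr1 and Hspa1a are on both of the lists last described. In cells of low cell-cycle share 8 of 16 were still called higher, against 778 of 8675 over all genes, with a median of 0.84. Under TMM and DESeq2 factors the medians of these 6 lists were lower by 0.12 and 0.13, as were those of all genes.

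**Figure D5:**
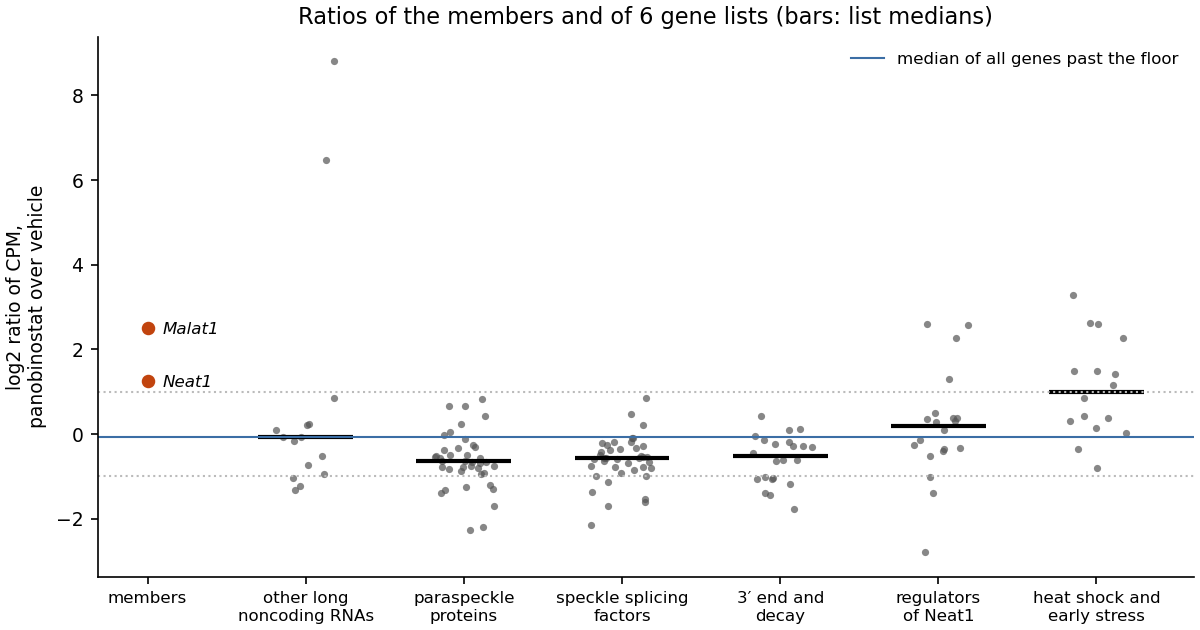
Log2 ratio of CPM, panobinostat over vehicle, of Malat1 and Neat1 (left) and of each gene past the floor in 6 gene lists; bars are list medians, the blue line is the median of all genes past the floor (-0.07) and dotted lines mark 2-fold. The medians of the paraspeckle (-0.65), speckle (-0.57) and 3′ end (-0.53) lists lie below the blue line and that of the stress list (1.00) above it.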

How the data were processed

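The authors deposited 1 matrix of raw UMI counts for 19394 genes and 5135 cells, with no normalization, and the count of a gene is not split by isoform. Per the labels' protocols the libraries are 10x Chromium 3′ gene expression libraries, and Cell Ranger 3.0.1 and mm10 are named in the submitters' processing notes. Whether intronic reads or strand entered the counts is not stated there. Cells were put in a library by the mark CTRL or PANO at the end of the barcode. All deposited cells were used, whose lowest gene number was 1798 and whose highest mitochondrial share was 9.98%.

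Counts were summed per library and scaled to CPM with exact Poisson intervals, and log2 ratios have exact conditional binomial 95% intervals. With 1 library per treatment no p-value was computed. Cells were thinned to 18663 UMIs (percentile 10 of the totals) for shares of cells and for likeness. Scrublet called 5 of 5135 cells doublets (0.0974%), too few to count as a working call, so doublets may remain. The list of S and G2/M genes holds 97 genes, and mitochondrial and ribosomal protein shares rest on 13 and 78 genes. Named are the members, 2 coding neighbours a side, the 5 genes most and the 3 least like each member, and up to 5 genes a list by size of ratio past the floor, of which some are not reported here; Nono, Pspc1, Hif1a, Cdc42ep2, Pola2 and Frmd8os were named after their values were seen, as were Xist, Kcnq1ot1 and 5 uncalled heat shock genes. Epas1, Slc2a1, Vegfa and the uncalled early response, RNase P and exosome genes were also named after their values were seen. The members and lists were chosen with earlier results of these data known. Locus and transcript sequences come from GENCODE M21. The code was tested on simulated counts. Tools were Python 3.11.15, scipy 1.17.1, scanpy 1.11.5, R 4.3.3, edgeR 4.0.16 and DESeq2 1.42.0, the last 2 for scaling factors only.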

Additional observations from a re-analysis of the deposited data

How the results depend on the processing

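Over 10 alternatives (other scalings, totals and choices of cells) the log2 ratio ran between 1.77 and 2.61 for Malat1 and between 0.74 and 1.42 for Neat1, and the sign was positive in all of them. Only the restriction to cells of low cell-cycle share took Neat1 below 2-fold (0.74). Of 52 recomputed relations 51 moved by less than 0.1, and that of Malat1 to the mitochondrial share with panobinostat was -0.031 with mitochondrial, cell-cycle and member UMIs left out of the total. Thinning gave a median Neat1 of 3.21 per 10000 in vehicle cells, and the other per-cell medians stayed within the interval of the main value. Among all genes the higher calls were 2344 at a floor of 1 CPM, 4179 with no floor and 1708 at 1.5-fold, and the lower calls 1870 with no floor and 2059 at 1.5-fold. With TMM factors there were 760 higher and 1208 lower calls, and with DESeq2 factors 753 and 1224. Cells of low cell-cycle share were an alternative added after seeing the data for the lists. Lower calls there were 3 of 40 for paraspeckle proteins, 2 of 40 for speckle factors and 3 of 22 for 3′ end and decay genes. For regulators of Neat1 they were 1 of 19, and over all genes 591 of 8675. The other list counts stayed within 1.5 times. No paired analysis was possible because each treatment has 1 library. Leaving out a replicate was not possible for the same reason, and the variation between cultures, mice and libraries is not known.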
